A study of Mus musculus with 6 samples.

Results

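A set of 10 genes of prostaglandin and leukotriene synthesis and signalling was read from the deposited gene table by their names. They were the phospholipase gene *Pla2g4a*, the cyclooxygenase genes *Ptgs1* and *Ptgs2*, the prostaglandin synthase genes *Ptges* and *Hpgds*, the leukotriene genes *Alox5*, *Alox5ap* and *Ltc4s*, and the prostaglandin E2 receptor genes *Ptger2* and *Ptger4*. All 10 were found among 54532 genes, and all 10 passed the filter of a mean of at least 0.5 FPKM. The libraries came from primary macrophages of WT (METRNL+/+) mice and of METRNL KO (METRNL-/-) mice, with 3 libraries per genotype. All cells, WT and KO alike, had been challenged with *Candida albicans* in culture for 6 h, and no unchallenged library was used. The comparison of KO with WT therefore concerns the genotype in challenged cells, with no view of the response to the challenge itself. The labels give neither the age of the mice nor the site the macrophages came from, and nothing in them ties a replicate to an animal or a culture of its own, so the p-values speak of library-to-library spread, which may be technical. Values of a group are given in the order of replicates 1 to 3.

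Eicosanoids are short-lived lipid signals made from arachidonic acid. Cytosolic phospholipase A2 frees arachidonic acid from membranes. The cyclooxygenases turn it into prostaglandin H2, which terminal synthases convert to prostaglandin E2, prostaglandin D2, prostacyclin or thromboxane. The 5-lipoxygenase branch makes leukotriene A4, the precursor of leukotriene B4 and of the cysteinyl leukotrienes. Macrophages are a major source of both branches when they meet microbes, and prostaglandin E2 acts back on them through the receptors EP2 and EP4, which raise cyclic AMP.

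Reads in genes, recovered from the deposited values, ranged from 11026529 to 15724897 per library. *Metrnl*, the targeted gene, stood at 93.5, 63.2 and 69.8 FPKM in the WT libraries against 51.2, 63.6 and 62.8 FPKM in the KO libraries, so its RNA does not check the genotype labels. KO means here the libraries labelled KO. All 10 core macrophage markers passed the filter, of which 5 were higher in KO, 1 (*Fcgr1*) was lower and 4 were not called. Their summed level, mostly that of *Lyz2*, *Cd14* and *Cd68*, was 4799 to 5604 FPKM in WT and 8579 to 9257 FPKM in KO. Of 8 retinal markers 7 stayed below 0.5 FPKM in every library. B cell markers were lower in KO for 9 of 9 tested, with a summed level of 353 to 431 FPKM in WT and of at most 25.1 FPKM in KO. Other lists fell too: 4 of 4 tested T and NK cell markers, 4 of 6 dendritic cell markers and 2 of 2 platelet and megakaryocyte markers were lower. None of these was higher, and 12.4% of all genes tested were lower. In bulk RNA, fewer cells of a type and less RNA per cell cannot be told apart. The replicate 1 libraries differed most from the rest of their groups. WT replicate 1 lay nearer to KO replicates 2 and 3 than to WT replicates 2 and 3 for 37.9% of the 11689 genes tested, and KO replicate 1 lay nearer to WT replicates 2 and 3 than to its own group for 36.1%. Both held at once for 20.3% of the genes. For a gene without a difference between the groups either side can be nearer, so these shares alone do not mark a library as misplaced. Among the 3946 genes with replicates 2 and 3 of KO and WT at least 0.4 apart (log2), the shares were 30.5%, 29.1% and 17.3%. Results are given with and without the 2 replicate 1 libraries.

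Of the 10 genes 1, *Ptger2*, was higher in KO and 0 were lower (limma on log2(FPKM + 1), Benjamini-Hochberg adjusted p below 0.05 over all genes tested). At an unadjusted p below 0.05 (limma), 4 were higher and 1 was lower, beside 2706 and 2066 of the 11689 genes tested. On the recovered reads limma-voom gave the same counts for the 10 genes, 1 and 0 adjusted, 4 and 1 unadjusted. In that fit 17.1% of all genes were called as higher, and 2739 were higher and 2109 lower at an unadjusted p below 0.05. With limma on log2(FPKM + 1) 28.0% of all genes tested were called, 15.7% as higher and 12.4% as lower. The called share of the 10 genes, 10%, was thus below that of all genes. Their median log2 fold change was 0.21, against 0.03 over all genes tested. For 5 of the 10 genes the 3 KO values did not overlap the 3 WT values, with 4 above and 1 below, and the same held for 45.6% of all genes tested, 25.7% above and 19.9% below. Without the replicate 1 libraries 3 of the 10 genes were called as higher (*Ptgs1*, *Ltc4s* and *Ptger2*) and 2 as lower (*Ptgs2* and *Pla2g4a*), with 35.6% of all genes called, 19.3% as higher and 16.3% as lower. Without WT replicate 1 alone 2 were higher (*Alox5* and *Ptger2*; 14.4% of all genes), and without KO replicate 1 alone 3 were higher (*Ptgs1*, *Ltc4s* and *Ptger2*; 14.2% of all genes). The libraries that remain without both are the most alike pairs of their groups, with a chi-square of reads per degree of freedom of 7.1 and 2.3 against 39.6 to 59.4 for the other pairs of the same group, so that fit takes its spread from the closest pairs.

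**Figure D1:**
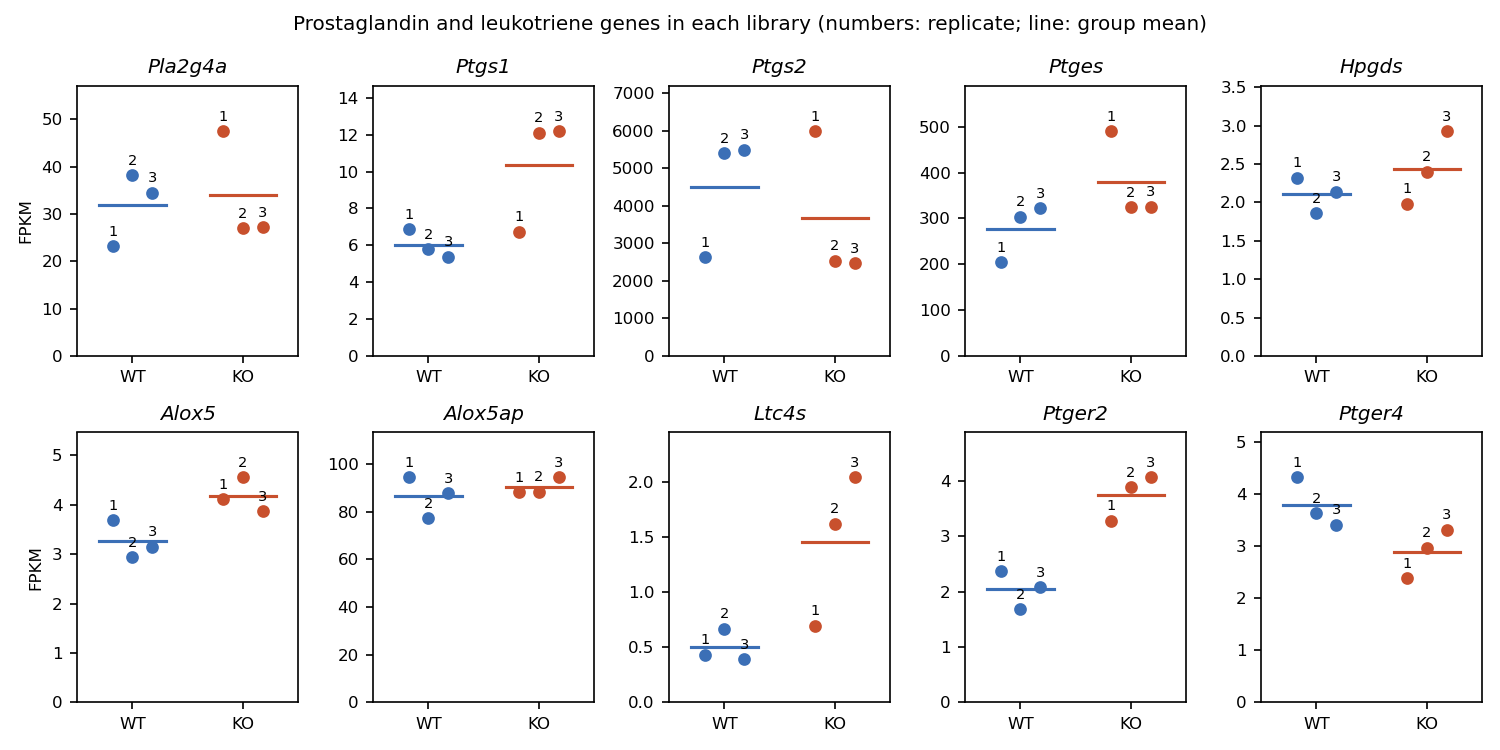
Level of each of the 10 genes in FPKM (vertical axes, each from 0) in the WT and KO libraries. Points are libraries, numbers are replicates and lines are group means. In *Ptgs2* and *Pla2g4a*, WT replicate 1 lies close to KO replicates 2 and 3 and KO replicate 1 lies above all WT libraries, while in *Ptger2* all KO points lie above all WT points.

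The levels, which FPKM gives per gene length, spanned a wide range. *Ptgs2*, the inducible cyclooxygenase known as COX-2, had a mean of 4090 FPKM over the 6 libraries, the 6th highest of all genes in the table. It took between 1.13% (KO replicate 3) and 2.65% (WT replicate 2) of all reads in genes. *Ptges*, which encodes the microsomal prostaglandin E synthase that works with COX-2, followed at 329 FPKM. *Alox5ap* stood at 88.4 FPKM, *Pla2g4a* at 32.9 FPKM and *Ptgs1* at 8.17 FPKM. The other 5 were lower, with *Alox5* at 3.72, *Ptger4* at 3.34, *Ptger2* at 2.89, *Hpgds* at 2.27 and *Ltc4s* lowest. The first 5 kept this order in every library. Within WT the ranges of *Alox5* and *Ptger4* overlapped, as did those of *Ptger2* and *Hpgds*. Within KO the ranges of *Alox5* and *Ptger2* overlapped, as did those of *Ptger2* and *Ptger4* and those of *Ptger4* and *Hpgds*.

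*Pla2g4a* (ENSMUSG00000056220, chromosome 1, 149829618 to 149961290, GRCm38, minus strand) encodes the cytosolic phospholipase A2 that releases arachidonic acid. It stood at 23.2, 38.1 and 34.5 FPKM in the WT libraries against 47.5, 27.0 and 27.2 FPKM in the KO libraries. KO replicate 1 was the highest and WT replicate 1 the lowest of the 6, and the groups overlapped. The means were 31.9 ± 7.74 FPKM for WT against 33.9 ± 11.8 FPKM for KO (n = 3 each, ± SD), with a log2 fold change of 0.06 and a 95% interval of -0.59 to 0.72 (limma, adjusted p = 0.887). Without the replicate 1 libraries the direction turned: the log2 fold change was -0.41 ± 0.07 SE (limma, adjusted p = 0.0136).

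*Ptgs2* (ENSMUSG00000032487, chromosome 1, 150100031 to 150108227, plus strand) had the largest standard error of the 10 genes, 0.45 on the log2 scale. It stood at 2636, 5410 and 5501 FPKM in the WT libraries against 5997, 2533 and 2466 FPKM in the KO libraries. The high libraries were WT replicates 2 and 3 and KO replicate 1, and the low libraries were WT replicate 1 and KO replicates 2 and 3, with no library between 2636 and 5410 FPKM. The means were 4516 ± 1629 FPKM for WT against 3665 ± 2020 FPKM for KO (n = 3 each, ± SD). The log2 fold change was -0.36 with a 95% interval of -1.44 to 0.73 (limma, adjusted p = 0.599), so a difference in either direction is within the spread. Without the replicate 1 libraries *Ptgs2* was 2.18-fold lower in KO, at 5456 against 2499 FPKM (limma log2 fold change -1.13 ± 0.09 SE and adjusted p = 0.00208). *Ptgs2os*, a noncoding gene that starts beside *Ptgs2* on the other strand, was looked at after its position was seen. It stood at 0.663, 1.63 and 1.77 FPKM in the WT libraries against 1.62, 0.746 and 0.801 FPKM in the KO libraries, with the same 3 libraries high. *Ptgs2os2*, a second noncoding gene on that strand, stood at 5.79, 12.8 and 14.4 FPKM in the WT libraries against 30.3, 15.1 and 15.7 FPKM in the KO libraries, with all KO values above all WT values (limma adjusted p = 0.152). The exons of *Ptgs2os* do not overlap those of *Ptgs2*.

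*Ptges* (ENSMUSG00000050737, chromosome 2, 30889471 to 30929863, minus strand) stood at 205, 304 and 322 FPKM in the WT libraries against 491, 324 and 326 FPKM in the KO libraries. WT replicate 1 was again the lowest and KO replicate 1 the highest. The KO values lay above the WT values, but KO replicates 2 and 3 did so by only a few FPKM over WT replicate 3. The log2 fold change was 0.45 ± 0.23 SE (limma, adjusted p = 0.199), and without the replicate 1 libraries it was 0.06 ± 0.06 SE (limma, adjusted p = 0.513).

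*Ptgs1* (ENSMUSG00000047250, chromosome 2, 36230426 to 36252272, plus strand), the cyclooxygenase gene that most tissues express without a stimulus, showed another arrangement. It stood at 6.86, 5.79 and 5.39 FPKM in the WT libraries against 6.74, 12.1 and 12.2 FPKM in the KO libraries. KO replicates 2 and 3 were high, while KO replicate 1 lay within the WT range. The log2 fold change was 0.66 ± 0.22 (SE) with a 95% interval of 0.12 to 1.19, and it missed the threshold (limma, adjusted p = 0.071). Without KO replicate 1 it was 0.91 (limma adjusted p = 0.00546), and without both replicate 1 libraries *Ptgs1* was 2.17-fold higher in KO (limma adjusted p = 0.00166).

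*Hpgds* (ENSMUSG00000029919, chromosome 6, 65117293 to 65144908, minus strand) encodes the hematopoietic prostaglandin D synthase. It stood at 2.32, 1.86 and 2.14 FPKM in the WT libraries against 1.98, 2.40 and 2.93 FPKM in the KO libraries. The groups overlapped, and the log2 fold change was 0.14 with a 95% interval of -0.16 to 0.43 (limma, adjusted p = 0.445).

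**Figure D2:**
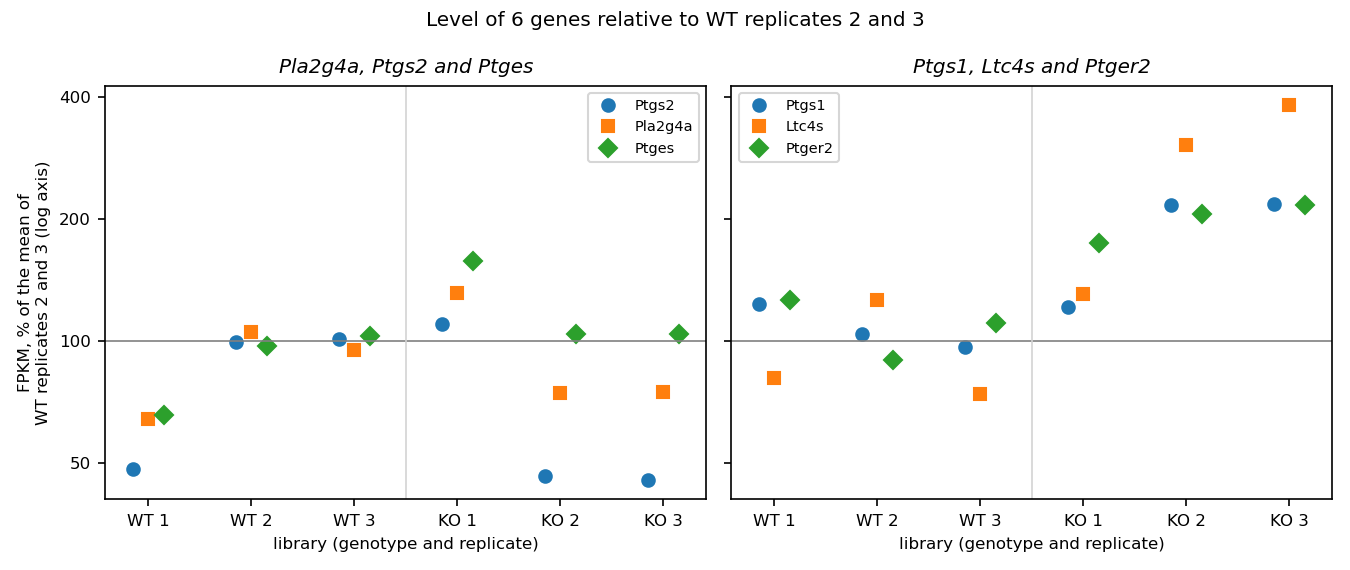
Level of 6 genes in each library as a percentage of the mean of WT replicates 2 and 3 (vertical log axis). On the left, *Ptgs2* is at 48.3% in WT replicate 1, at 109.9% in KO replicate 1 and at 46.4% and 45.2% in KO replicates 2 and 3. On the right, *Ptgs1* is at 121% in KO replicate 1 against 216% and 218% in KO replicates 2 and 3, while *Ptger2* is at 174% or more in all KO libraries.

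The sequences before the start sites of *Ptgs2*, *Pla2g4a* and *Ptges*, in which WT replicate 1 was lowest or among the lowest and KO replicate 1 highest, and of *Ptgs1*, in which KO replicates 2 and 3 were high, are printed to set side by side. RefSeq promoter windows (GRCm38.p6) matched 9 of the 10 genes, all but *Alox5ap*. Each sequence holds the 250 bases before the RefSeq start, 5′ to 3′ on the gene's strand, and capitals mark matches to any of 10 short motifs searched on both strands. The windows are chr1:150099781-150100030 on the plus strand for *Ptgs2*, chr1:149961291-149961540 on the minus strand for *Pla2g4a*, whose window is the one at the start of the deposited gene model, chr2:30903298-30903547 on the minus strand for *Ptges*, where the RefSeq start lies inside the deposited gene model, and chr2:36230176-36230425 on the plus strand for *Ptgs1*. The *Ptgs2* window also holds exon bases of *Ptgs2os*.
Ptgs2: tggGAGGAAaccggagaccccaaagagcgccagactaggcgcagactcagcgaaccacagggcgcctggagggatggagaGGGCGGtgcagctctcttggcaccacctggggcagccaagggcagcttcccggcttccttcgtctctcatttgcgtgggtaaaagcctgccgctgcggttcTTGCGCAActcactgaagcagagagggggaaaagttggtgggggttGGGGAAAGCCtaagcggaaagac
Pla2g4a: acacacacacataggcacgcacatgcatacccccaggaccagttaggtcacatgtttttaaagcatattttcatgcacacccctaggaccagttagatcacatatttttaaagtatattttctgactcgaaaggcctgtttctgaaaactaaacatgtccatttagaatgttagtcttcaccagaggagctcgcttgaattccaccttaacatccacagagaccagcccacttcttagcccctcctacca
Ptges: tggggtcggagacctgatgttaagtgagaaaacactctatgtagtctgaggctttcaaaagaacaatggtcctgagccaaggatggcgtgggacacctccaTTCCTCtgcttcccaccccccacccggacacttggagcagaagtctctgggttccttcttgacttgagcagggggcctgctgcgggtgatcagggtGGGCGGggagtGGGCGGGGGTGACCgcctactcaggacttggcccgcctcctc
Ptgs1: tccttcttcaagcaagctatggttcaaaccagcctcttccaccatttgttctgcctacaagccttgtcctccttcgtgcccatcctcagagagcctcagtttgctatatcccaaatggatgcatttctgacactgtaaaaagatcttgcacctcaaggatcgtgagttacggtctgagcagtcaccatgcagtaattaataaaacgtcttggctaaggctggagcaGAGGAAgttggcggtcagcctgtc

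The *Ptgs2* window held 4 of the 10 motifs: a C/EBP motif (TTGCNNAA), a kappaB motif (GGG and CC with any 5 bases between), a PU.1 core (GAGGAA) and a GC box (GGGCGG). The *Ptges* window held the kappaB motif, the PU.1 core and 2 GC boxes, of which 1 overlaps the kappaB match, and the *Ptgs1* window held the PU.1 core alone. The *Pla2g4a* window held none of the 10. Of all 32851 RefSeq windows of this length, 9.56% held the C/EBP motif, 45.8% the kappaB motif, 23.3% the PU.1 core and 32.7% the GC box. The other 6 motifs, the TATA box (TATAAA), the full CRE (TGACGTCA) and its core (CGTCA), AP-1 (TGANTCA), an ATF4-C/EBP composite (TGATGNAA) and an ISRE core (GAAA on both sides of any 2 bases), were in none of the 9 windows. In the 50 bases after the RefSeq start, *Ptgs2* held the CRE core at base 14, *Ptgs1* and *Alox5* the kappaB motif at bases 28 and 2, *Ptger2* the C/EBP motif at base 40 and *Ltc4s* the PU.1 core at base 17. Of whole 300-base windows 20.8% hold the CRE core, 50.8% the kappaB motif, 10.8% the C/EBP motif and 28.3% the PU.1 core. These are matches of letters and not sites shown to be bound.

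In the leukotriene branch, *Alox5* (ENSMUSG00000025701, chromosome 6, 116410077 to 116461178, minus strand) encodes 5-lipoxygenase. It stood at 3.69, 2.94 and 3.15 FPKM in the WT libraries against 4.11, 4.55 and 3.87 FPKM in the KO libraries. The KO values lay above the WT values, by 3.87 against 3.69 FPKM at the nearest. The log2 fold change was 0.28 ± 0.09 (SE) and missed the threshold (limma, adjusted p = 0.0709). Without WT replicate 1 the adjusted p was 0.0438, and without both replicate 1 libraries it was 0.0511 (limma).

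*Alox5ap* (ENSMUSG00000060063, chromosome 5, 149264767 to 149288153, plus strand) encodes FLAP, the membrane protein that presents arachidonic acid to 5-lipoxygenase. It stood at 94.4, 77.4 and 87.7 FPKM in the WT libraries against 88.3, 88.4 and 94.4 FPKM in the KO libraries. The groups overlapped, and the log2 fold change was 0.07 with a 95% interval of -0.15 to 0.28 (limma, adjusted p = 0.628).

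*Ltc4s* (ENSMUSG00000020377, chromosome 11, 50236461 to 50238616, minus strand), the leukotriene C4 synthase gene, was the lowest of the 10. It stood at 0.431, 0.670 and 0.394 FPKM in the WT libraries, from 7, 8 and 5 reads, against 0.694, 1.62 and 2.04 FPKM in the KO libraries, from 9, 26 and 31 reads. KO replicates 2 and 3 were high and KO replicate 1 lay just above WT replicate 2. The ratio of the means was 2.92-fold, and the log2 fold change of 0.67 ± 0.22 (SE) missed the threshold (limma, adjusted p = 0.0700). It passed without KO replicate 1 (limma adjusted p = 0.00991), without both replicate 1 libraries (limma adjusted p = 0.0139, 3.44-fold) and with quantile normalization (limma adjusted p = 0.0400, where 14.5% of all genes were called as higher). Mast cells also express *Hpgds*, *Alox5* and *Ltc4s*. In these libraries the 9 mast cell and basophil markers had a summed level of 8.26 to 10.1 FPKM in WT and 2.52 to 3.46 FPKM in KO, with 4 of 5 tested called as lower and *Gata2* at 1.71 ± 0.481 and 1.63 ± 0.274 FPKM (SD, n = 3 each). The part of mast cells in the values of these 3 genes was not tested. Exons of genes on the other strand, at no more than 0.295 FPKM in any library, overlap those of *Ltc4s*, *Ptgs1*, *Alox5ap* and *Ptger2*.

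The receptor gene *Ptger2* (ENSMUSG00000037759, chromosome 14, 44988195 to 45003820, plus strand), which encodes EP2, was the gene that rose. It stood at 2.37, 1.68 and 2.08 FPKM in the WT libraries against 3.28, 3.88 and 4.06 FPKM in the KO libraries. All 3 KO libraries lay above all 3 WT libraries. The means were 2.04 ± 0.342 and 3.74 ± 0.408 FPKM (SD, n = 3 each), a 1.83-fold rise resting on 435 WT and 852 KO reads (limma log2 fold change 0.64 ± 0.11 SE and adjusted p = 0.00974). The call held without each library in turn and without both replicate 1 libraries (limma adjusted p = 0.00749). It was lost when each library was scaled to the same total as TPM (log2 fold change 0.71, limma adjusted p = 0.0637). A fit that also took in the replicate number lost it as well. In TPM 542 genes (4.64%) were higher and 1161 lower, against 1833 and 1445 with the deposited scaling, so higher genes made up 31.8% of the calls in place of 55.9%.

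*Ptger4* (ENSMUSG00000039942, chromosome 15, 5206661 to 5244187, minus strand) encodes EP4, the other receptor of prostaglandin E2 that acts through cyclic AMP. It stood at 4.32, 3.63 and 3.41 FPKM in the WT libraries against 2.38, 2.97 and 3.32 FPKM in the KO libraries. The KO values lay below the WT values, with KO replicate 3 close to WT replicate 3. The log2 fold change of -0.30 ± 0.12 (SE) missed the threshold (limma, adjusted p = 0.113). Exons of *Ttc33*, which stood at 4.24 to 5.89 FPKM over the 6 libraries, overlap those of *Ptger4* on the other strand, and whether counting used strand is not given in the sources used here, so reads of the 2 genes may be mixed.

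**Figure D3:**
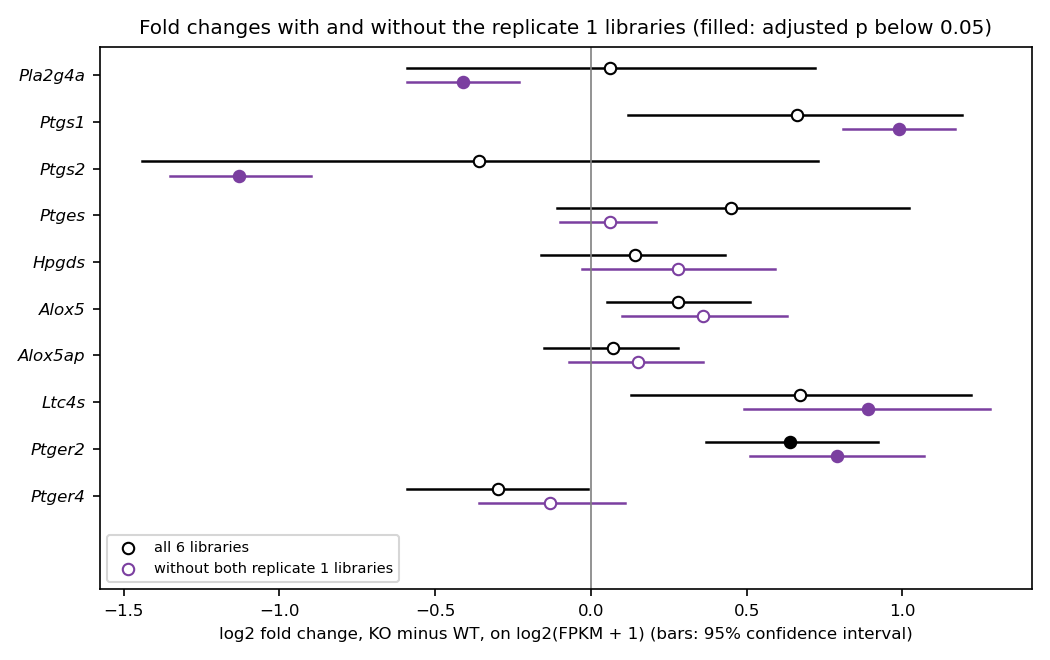
Difference of KO from WT in log2(FPKM + 1) (horizontal axis) for the 10 genes, with 95% confidence intervals, from all 6 libraries (black) and without both replicate 1 libraries (purple). Filled points have an adjusted p below 0.05: *Ptger2* alone with 6 libraries, and *Ptger2*, *Ptgs1*, *Ltc4s*, *Ptgs2* and *Pla2g4a* without the replicate 1 libraries.

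Ratios of 2 genes within a library do not depend on how the library was scaled. *Ptger4* exceeded *Ptger2* in every WT library, with ratios of 1.82, 2.15 and 1.64 in replicates 1 to 3, and was below it in every KO library, with ratios of 0.724, 0.766 and 0.818. The log2 ratio averaged 0.90 ± 0.20 in WT and -0.38 ± 0.09 in KO (SD, n = 3 each), a difference of -1.28, with a two-sided exact permutation p of 0.10, the smallest that 3 against 3 libraries allow. Without the replicate 1 libraries the difference was -1.25. The order of the 2 EP receptor genes in the deposited values thus differed between all WT and all KO libraries. Which of the 2 is higher depends on the gene lengths used, 6648 bases for *Ptger4* and 5193 for *Ptger2*. The difference in log2 ratio between the groups does not depend on the lengths. Any *Ttc33* reads counted in *Ptger4* would affect both.

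The other 3 ratios overlapped between the groups. *Ptgs2* exceeded *Ptgs1* 384-fold, 934-fold and 1021-fold in WT replicates 1 to 3 and 889-fold, 209.8-fold and 202-fold in KO replicates 1 to 3. The difference in log2 ratio was -1.09 (exact permutation p = 0.20, two-sided) and -2.24 without the replicate 1 libraries. *Ltc4s* over *Alox5* differed by 1.09 in log2 ratio (exact permutation p = 0.20) and *Ptges* over *Hpgds* by 0.26 (exact permutation p = 0.60). The exact test of 3 against 3 libraries cannot reach 0.05, so none of the 4 ratios could pass it.

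**Figure D4:**
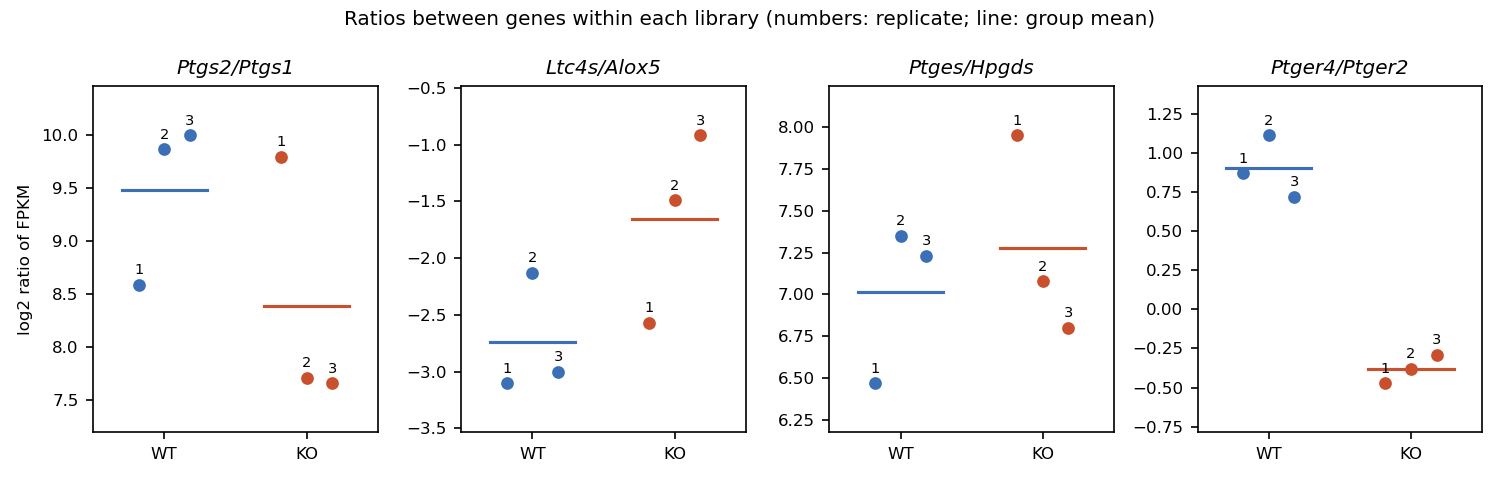
Log2 ratio of FPKM (vertical axes) between 2 genes within each library for 4 pairs. Points are libraries, numbers are replicates and lines are group means. The ratio of *Ptger4* to *Ptger2* lies above 0 in the 3 WT libraries and below 0 in the 3 KO libraries, while in the ratio of *Ptgs2* to *Ptgs1* KO replicate 1 lies with WT replicates 2 and 3.

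The remaining genes of the pathway were listed by role, 93 in all. Of these 92 were in the table and 62 passed the filter, of which 12 were higher (19.4%) and 8 lower (12.9%) in KO, shares near those of all genes tested. Without the replicate 1 libraries 18 of the 62 were higher and 8 lower, where 19.3% of all genes were higher and 16.3% lower. In TPM 6 were lower and 1 was higher, *Acsl4*, so the other rises named below were not called on that scale. The 30 genes that did not pass, with means up to 0.479 FPKM, included the receptor genes *Ptger1*, *Ptger3*, *Ptgdr*, *Ptgdr2*, *Ptgfr* and *Tbxa2r* and the cysteinyl leukotriene receptor genes *Cysltr1* and *Cysltr2*. Of the prostanoid receptors on the list other than EP2 and EP4, only the prostacyclin receptor gene *Ptgir* passed the filter in these libraries.

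Prostacyclin genes went both ways. *Ptgis*, prostacyclin synthase (chromosome 2, 167191805 to 167240604), had the lowest log2 fold change on these lists. It stood at 31.2, 20.9 and 21.2 FPKM in the WT libraries against 4.84, 4.71 and 4.99 FPKM in the KO libraries. The groups lay far apart and the replicate 1 libraries followed their labels. The fall was 5.04-fold (limma log2 fold change -2.10 ± 0.16 SE and adjusted p = 4.74e-04), and the call held under all 16 alternatives run. Mesothelial cells and fibroblasts also make prostacyclin. Their 8 markers had a summed level of 8.50 to 10.3 FPKM in WT and 4.41 to 5.65 FPKM in KO, 2 of 5 tested were lower, and *Upk3b*, *Wt1* and *Lrrn4* stayed below 0.5 FPKM in every library. The part of these cells in the fall of *Ptgis* was not tested.

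*Ptgir* stood at 27.2, 19.1 and 20.4 FPKM in the WT libraries against 31.8, 38.3 and 41.3 FPKM in the KO libraries. All KO libraries lay above all WT libraries, a 1.67-fold rise (limma adjusted p = 0.0186). The call was lost without WT replicate 2 (0.0602), WT replicate 3 (0.0673), KO replicate 2 (0.0670) or KO replicate 3 (0.0668), with quantile normalization (0.0544) and in TPM (0.106; limma adjusted p in each case). No other of the 6 prostanoid synthase genes tested was called. Thromboxane synthase, *Tbxas1*, stood at 4.04 to 5.62 FPKM in WT and at 6.00 to 7.26 FPKM in KO (limma adjusted p = 0.0533), and *Ptges3*, the cytosolic prostaglandin E synthase and co-chaperone, at 52.7 ± 6.18 and 53.8 ± 10.5 FPKM (SD, n = 3 each).

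In the lipoxygenase branch *Alox15* (chromosome 11, 70344152 to 70352031), whose 12/15-lipoxygenase oxidises arachidonic acid at other positions than 5-lipoxygenase, fell. It stood at 71.3, 53.7 and 61.5 FPKM in the WT libraries against 37.0, 33.4 and 32.8 FPKM in the KO libraries. The groups did not overlap and the fall was 1.81-fold (limma log2 fold change -0.83 ± 0.12 SE and adjusted p = 0.00431), called under all 16 alternatives run. Eosinophils also express *Alox15* in mice. Of 6 eosinophil markers *Prg2*, *Epx* and *Ccr3* stayed below 0.5 FPKM in every library, *Siglecf* and *Ear6* reached at most 0.609 and 0.592 FPKM, and *Il5ra*, the 1 that passed the filter, fell from 2.58 ± 0.404 to 0.0794 ± 0.0389 FPKM (n = 3 each, ± SD; limma adjusted p = 2.63e-04). Together the 6 markers summed to 3.71 to 4.21 FPKM in WT and 0.553 to 0.855 FPKM in KO. *Il5ra* made up most of that sum in every WT library, so the fall of the sum rests mainly on this 1 gene. Which cells the *Il5ra* reads came from was not tested, and the B cell markers were lower in KO as well, 9 of 9 tested. The 6 markers thus do not show whether eosinophils differed. Of 6 large peritoneal macrophage markers, which name the cells best known for *Alox15*, 2 fell, *Prg4* from 109.6 ± 2.96 to 60.0 ± 2.94 FPKM and *Timd4* from 4.71 ± 1.26 to 0.570 ± 0.142 FPKM (SD, n = 3 each), and 1 rose, *Adgre1*, which is also a core macrophage marker, with 155 to 175 FPKM in WT and 222 to 278 FPKM in KO. Their summed level, of which *Adgre1* makes up the most, was 277 to 304 FPKM in WT and 294 to 358 FPKM in KO. The remaining 3 of these macrophage markers were not called, with log2 fold changes of 0.21 for *Gata6*, 0.19 for *Icam2* and -0.19 for *Selp* (limma). Without both replicate 1 libraries *Selp* was called as lower (limma log2 fold change -0.43, adjusted p = 0.0203). This list of macrophage markers thus went both ways. The part of eosinophils or large peritoneal macrophages in the *Alox15* difference was not tested. *Cotl1*, whose coactosin-like protein binds 5-lipoxygenase, rose 1.53-fold to 631 ± 44.6 FPKM (SD, n = 3; limma adjusted p = 0.0282), and *Gpx4*, which reduces lipid peroxides, rose 1.27-fold (limma adjusted p = 0.0269). Both calls were lost without WT replicate 3, KO replicate 2 or KO replicate 3, where the adjusted p lay between 0.0599 and 0.0976. *Cotl1* was also lost without WT replicate 2 (0.0564) and *Gpx4* without KO replicate 1 (0.0527). With quantile normalization the adjusted p was 0.129 for *Cotl1* and 0.208 for *Gpx4*, and without a filter on low values it was 0.0764 and 0.0518 (limma).

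On the leukotriene B4 side, the hydrolase gene *Lta4h*, which makes leukotriene B4, stood at 5.72 to 6.22 FPKM in WT and at 6.38 to 7.61 FPKM in KO and was not called (limma adjusted p = 0.0957). *Abcc1*, whose transporter exports leukotriene C4, stood between 38.8 and 41.6 FPKM in WT and between 43.6 and 48.0 FPKM in KO (limma adjusted p = 0.110). *Fpr2*, a receptor gene for lipoxins and formyl peptides, stood at 108, 142 and 151 FPKM in the WT libraries against 168, 89.1 and 85.7 FPKM in the KO libraries, high in WT replicates 2 and 3 and KO replicate 1 (limma adjusted p = 0.504). Without KO replicate 1 its adjusted p was 0.0454, and without both replicate 1 libraries it was lower in KO (limma log2 fold change -0.74, adjusted p = 0.00235). The leukotriene B4 receptor gene *Ltb4r1* fell 1.39-fold, from 6.23 ± 0.774 to 4.49 ± 0.383 FPKM (n = 3 each, ± SD; limma adjusted p = 0.0314). *Cyp4f18*, whose enzyme inactivates leukotriene B4, fell 1.55-fold, from 48.5 ± 10.6 to 31.2 ± 3.15 FPKM (n = 3 each, ± SD; limma adjusted p = 0.0459), and its relative *Cyp4f13* rose 1.36-fold (limma adjusted p = 0.0378). None of these 3 calls held without the replicate 1 libraries (limma adjusted p = 0.0823, 0.168 and 0.128), and without WT replicate 1, WT replicate 3, KO replicate 1 or KO replicate 3 none was called either (adjusted p from 0.0548 to 0.133). Without KO replicate 2 *Cyp4f13* alone kept its call, and without WT replicate 2 all 3 did. In TPM the falls of *Ltb4r1* (0.102) and *Cyp4f18* (0.0741) were not called either (limma adjusted p). Neutrophils also carry *Ltb4r1* and *Cyp4f18*. Of 9 neutrophil markers 7 were tested, 1 fell (*Mmp8*) and 6 were not called. The summed level of the 9 was 89.0 to 124 FPKM in WT and 56.3 to 67.1 FPKM in KO. Nearly all of it came from *Mmp8*, at 60.3 ± 9.69 and 25.0 ± 1.57 FPKM, and *Retnlg*, at 46.2 ± 10.3 and 33.1 ± 4.11 FPKM. *Ngp* went the other way, at 0.691 ± 0.423 and 1.46 ± 0.328 FPKM (SD, n = 3 each). The part of neutrophils in the differences of *Ltb4r1* and *Cyp4f18* was not tested.

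**Figure D5:**
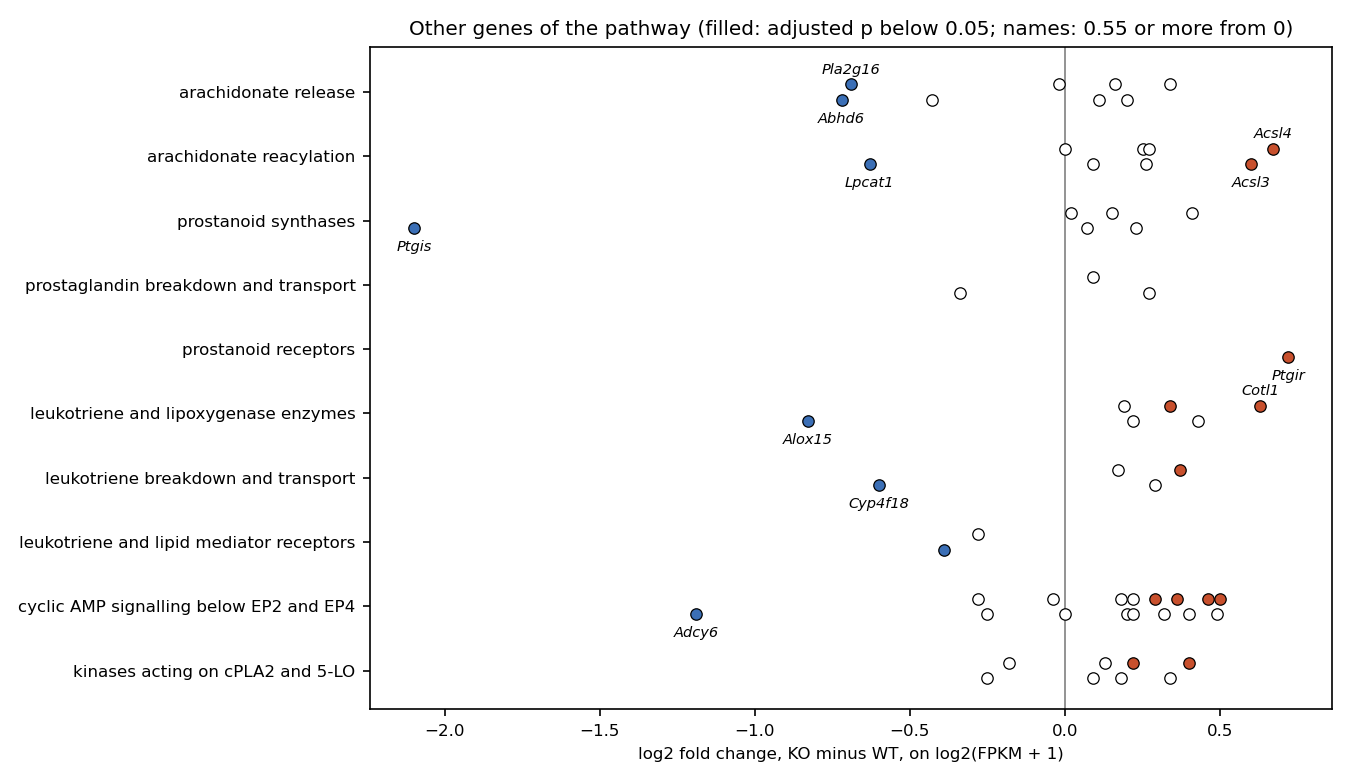
Difference of KO from WT in log2(FPKM + 1) (horizontal axis) of the 62 other pathway genes tested, by list (vertical axis). Each point is a gene, orange points were higher and blue points lower in KO at an adjusted p below 0.05, and white points were not called. *Ptgis*, *Adcy6* and *Alox15* lie farthest to the left and *Ptgir* and *Acsl4* farthest to the right.

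Below the EP receptors, 4 of 16 tested genes of cyclic AMP signalling rose and 1 fell, where 15.7% of all genes were higher and 12.4% lower. *Adcy6*, an adenylyl cyclase gene, was lower in KO, at 2.69, 3.09 and 2.65 FPKM in the WT libraries against 0.634, 0.626 and 0.758 FPKM in the KO libraries. The groups lay far apart, a 4.18-fold fall (limma log2 fold change -1.19 ± 0.09 SE and adjusted p = 4.42e-04) that was called under all 15 alternatives in which it was tested. The protein kinase A regulatory subunit genes *Prkar1a* and *Prkar2b* rose 1.29-fold and 1.24-fold (limma adjusted p = 0.00862 and 0.0205), and *Crem*, a cyclic AMP-responsive transcription factor gene, rose 1.48-fold (limma adjusted p = 0.00817). The fourth, *Adcy9*, is named after its value was seen and stood at 0.448 ± 0.12 FPKM for WT against 1.05 ± 0.214 FPKM for KO (n = 3 each, ± SD; limma adjusted p = 0.0256). *Prkar1a* was not called with quantile normalization (0.0975), and *Prkar2b* was not called without WT replicate 2 (0.0578), WT replicate 3 (0.0599), KO replicate 2 (0.0549) or KO replicate 3 (0.0741).

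Of 8 tested genes listed under the return of arachidonic acid to phospholipids 2 rose and 1 fell. Beside this list and the others of this paragraph, 15.7% of all genes tested were higher and 12.4% lower. *Acsl4*, the acyl-CoA synthetase gene that prefers arachidonic acid, rose 1.60-fold, with means from 43.0 ± 3.16 to 69.0 ± 6.51 FPKM (n = 3 each, ± SD; limma log2 fold change 0.67 ± 0.09 SE and adjusted p = 0.00465), and in TPM by limma at 0.00673. *Acsl3* rose 1.72-fold (limma adjusted p = 0.00662), and *Lpcat1* fell 2.01-fold (limma adjusted p = 0.0242), without a call when the replicate 1 libraries were left out (limma adjusted p = 0.0605). *Lpcat1* was also not called without KO replicate 1 (0.0588), KO replicate 2 (0.0638) or KO replicate 3 (0.0596). Of 8 tested lipases and their partners that release it 0 rose and 2 fell (limma), the low genes *Abhd6* and *Pla2g16*, named after their values were seen (0.884 ± 0.169 to 0.141 ± 0.0790 FPKM and 1.01 ± 0.234 to 0.242 ± 0.0623 FPKM; SD, n = 3 each). *Pla2g15*, the lysosomal phospholipase A2 gene and the highest of that list, averaged 19.0 ± 3.32 and 13.7 ± 1.36 FPKM in WT and KO (SD, n = 3 each; limma adjusted p = 0.0568). Of 8 kinases that act on cytosolic phospholipase A2 or 5-lipoxygenase 2 rose, among them *Mapkapk3*, 1.35-fold (limma adjusted p = 0.00534). *Mapkapk2*, the highest of that list, stood at 420.0 ± 104 and 479 ± 158 FPKM (SD, n = 3 each) and was called as lower without both replicate 1 libraries (limma log2 fold change -0.30, adjusted p = 0.0207).

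Across the 6 libraries the genes with the profile most like that of *Ptger2* were *Mfsd11*, *Ptpre*, *Derl1* and *Slc41a2*. Likeness was the root mean square difference between log2(FPKM + 1) profiles centred on their own means, which was 0.0219 to 0.0416 for these 4 among the 6979 candidates, whose mean reached 2 FPKM. As many as 170 genes lay within 0.1 of *Ptger2*, so its profile is a common one. For *Ptgs2*, taken after its values were seen, the nearest were *Bach1* (0.0361), *Nr4a1* (0.0723), *Rassf4* (0.0747) and *Socs3* (0.0825), and 10 genes lay within 0.1. *Bach1* stood at 30.1, 64.2 and 64.9 FPKM in the WT libraries against 67.8, 28.7 and 29.7 FPKM in the KO libraries, high in the same 3 libraries as *Ptgs2*.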

How the data were processed

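RNA of 6 libraries was extracted with Trizol and prepared with an Illumina TruSeq kit, per the labels, whose extraction text speaks of retinas. The authors deposited FPKM for 54532 genes with gene lengths. Genome build GRCm38 (mm10) is named in the submitters' processing notes, while aligner, counter and strand setting were not given in the sources used here. Multiplied by gene length, the deposited FPKM came out as whole multiples of a library's smallest step for 100% of values (tolerance 0.05 of a step), and these multiples were taken as reads. Tests ran on log2(FPKM + 1), which understates changes of low genes, over the 11689 genes whose mean reached 0.5 FPKM, with limma 3.58.1 in R 4.3.3 (genotype alone, eBayes with trend, Benjamini-Hochberg). Folds are ratios of mean FPKM. A symbol found more than once takes its highest entry.

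The 10 genes and all lists were chosen with earlier results of these data known. From the lists the text names called genes without group overlap that reach 2 FPKM in the higher group and the highest gene per list. For the called gene of the 10 with the largest rise it names the 4 genes of nearest profile. A called gene of the lists is not reported here by name. Other named genes were picked after their values were seen, as was the description of the replicate 1 libraries. The fitting code was tested on simulated data. All 10 genes had the same start and end in GENCODE M21. Alternatives were another pseudocount and filter, quantile normalization, TPM, other eBayes settings, a replicate block and leaving libraries out. The count-model fits planned were not run, because the unit is FPKM, and limma-voom on recovered reads, added after the data were seen, took their place.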

Additional observations from a re-analysis of the deposited data

How the results depend on the processing

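Higher genes numbered 542 in TPM and 479 with the replicate block, and 912 to 1681 with 1 library left out; lower genes numbered 876 at a mean of at least 2 FPKM, 604 with the block and 851 to 1337 with 1 library left out. Of the 10 genes 0 were called as higher in TPM and 0 with the block (limma; 3 and 2 at an unadjusted p below 0.05). At that unadjusted threshold 1375 of the 11689 genes tested were higher in TPM and 2081 with the block (limma). Quantile normalization called 2 of the 10 as higher, and fits with 1 library left out called 1 to 3. The fit without both replicate 1 libraries called 3 as higher and 2 as lower. Pathway genes called as higher numbered 7 without a filter, 1 in TPM, 0 with the block (limma; 14 at an unadjusted p below 0.05) and 5 to 15 with 1 library left out, and lower ones 5 without a filter, 5 at a mean of at least 2 FPKM, 3 with the block and 5 to 8 with 1 library left out. Among the fits with 1 library left out the lowest counts came without KO replicate 2 (912 and 851; pathway 6 and 5), KO replicate 3 (914 and 852; pathway 5 and 5) and WT replicate 3 (1062 and 879; pathway 5 higher), followed by WT replicate 2 (1167 higher).

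The block uses the replicate number, which the labels share between the genotypes without saying that it pairs samples. Deviations from the group mean correlated at -0.50, -0.19 and -0.16 for libraries of the same number. No library correlated best with its own number. Deviations within a group are tied to each other, so these correlations cannot settle whether the numbers pair samples. With the block the adjusted p of *Ptger2* was 0.0615.

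Directions turned for genes that were not called with all 6 libraries. *Pla2g4a* was at -0.10 with quantile normalization, -0.02 in TPM, -0.14 without WT replicate 1, -0.20 without KO replicate 1 and -0.41 without both, with a highest value of 0.20 when 1 library was left out. In the same order *Ptges3* was at -0.15, -0.06, -0.08, -0.13 and -0.22, with a highest value of 0.14. *Alox5ap* was at -0.07 with quantile normalization, -0.02 in TPM and -0.01 without WT replicate 2 (up to 0.13), and *Ptgr1*, prostaglandin reductase, at -0.05 with quantile normalization and -0.08 without WT replicate 2 (up to 0.25). *Mapkapk2* was at -0.05, -0.08 and -0.30 without WT replicate 1, KO replicate 1 and both (up to 0.31). Without both replicate 1 libraries *Pla2g4a* and *Mapkapk2* were called as lower (limma adjusted p = 0.0136 and 0.0207). The log2 ratio of *Ptges* to *Hpgds* was -0.02, -0.08 and -0.35 without WT replicate 1, KO replicate 1 and both, and up to 0.50 with another library left out, and that of *Ptger4* to *Ptger2* was -0.94 with 1 FPKM added to each. The cause was not tested, except that adding 1 FPKM pulls ratios of low genes toward 0 by construction. *Ltc4s* could not be tested at a mean of at least 2 FPKM, which it does not reach. At 5 to 31 reads per library its value is limited by depth.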
